A study of Mus musculus with 27 samples.

Results

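Messenger RNA of 42 nucleolar ribosome biogenesis genes was followed in mouse thymus and in a mouse pro-T cell line, in models of the transcription factor TAL1 and of AKT(E17K), an activated mutant of the kinase AKT1. The 42 genes were chosen by name, for their place in the making of ribosomes, and each was found by its symbol in all 3 count tables. Those tables held 46078 rows that name a gene for the mice without AKT(E17K) and for the cell line, and 22906 for the mice with AKT(E17K). All 42 genes passed the filter on low counts in each table. They lie on 17 chromosomes, so they share a process and not a locus.

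Ribosomes are built mainly in the nucleolus. RNA polymerase I transcribes the ribosomal RNA precursor, small nucleolar ribonucleoproteins (snoRNPs) of the box C/D and box H/ACA classes guide its methylation and pseudouridylation, and large sets of assembly factors fold and cut it into the small and large subunits. Growing and dividing lymphocytes need many ribosomes, and MYC is the best known activator of these genes in lymphoid cells.

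The thymus samples came from C57BL/6 recipients of bone marrow transplants, 3 animals in each of 4 groups: constitutive TAL1 together with AKT(E17K), AKT(E17K) alone, TAL1 overexpression, and empty vector (EV). The other 15 libraries came from ProT cells, a line in which TAL1 is described as induced through CreER and LoxP by 4OH tamoxifen, with 3 libraries each at 0, 6, 12, 18 and 24 h of treatment. Every ProT library, that at 0 h included, carried the inducible construct, and no untreated time course or line without the construct was analysed here. The promoter that drove the transgenes, the ages of the mice and the species of the introduced TAL1 were not given in the labels. Nothing in the labels says that the 3 ProT libraries of a time are separate cultures, so p-values in ProT cells reflect the spread of these samples alone, which could be technical.

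The promoters of the genes are shown first, because MYC and its partners bind the letters CACGTG. A link between these letters and the values that follow was not tested. RefSeq windows on GRCm38.p6, from 250 bases before to 50 after the start of each gene, were found for 36 of the 42 genes. There were none for Bop1, Rrs1, Fbl, Rrp12, Dcaf13 and Npm1. CACGTG, the same on both strands, stood in 7 of the 36 windows (19.4%), against 7.24% of all 27025 windows and 7.91% of the 17491 windows of protein-coding genes. Of the 82 windows found for further assembly genes, 23.2% held it. Each of the 7 windows held it once, and only in Nop2 did it lie before the start, at base -60. The 26 bases around each site follow, 5′ to 3′ on the strand of the gene, with CACGTG in capitals.
Grwd1, chr7:45830740-45830765, minus strand: gccggagtcgCACGTGtgaaaccgga
Mybbp1a, chr11:72441351-72441376, plus strand: gactgtcttctgagccCACGTGtttg
Nop2, chr6:125131813-125131838, plus strand: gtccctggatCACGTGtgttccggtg
Pes1, chr11:3963967-3963992, plus strand: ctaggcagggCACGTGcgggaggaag
Tsr1, chr11:74898094-74898119, plus strand: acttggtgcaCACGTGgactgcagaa
Utp20, chr10:88826765-88826790, minus strand: gcggcactaactaCACGTGaggaaaa
Wdr43, chr17:71616222-71616247, plus strand: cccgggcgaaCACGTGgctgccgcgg

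Other letters were searched on both strands in the same 36 windows. GGAAGT, the core of sites read by ETS factors, stood in 18 of them (50%), against 24.1% of all windows, 25.1% of coding ones and 64.6% of the 82 windows of further assembly genes. The TAL1-related letters were scarce, on small counts, and were also less frequent in further assembly genes than in all windows. CAGATG, an E box bound by TAL1 with its E protein partners, stood in 1 window (2.78%). It stood in 17.3% of all windows, 14.9% of coding ones and 8.54% of those of further assembly genes. GATAAG, the core read by GATA factors, stood in 0, against 7.42%, 6.88% and 3.66% of the same sets. The broader E box CANNTG, which includes CACGTG and CAGATG, stood in 20 windows (55.6%), against 72.1%, 68.8% and 65.9% of these sets. Median GC content was 57.7% in the 36 windows, 52.7% in all windows and 56.3% in coding ones. A match of letters is a description of the sequence and not a bound site. Bysl, Pa2g4, Ncl and Nolc1, whose RNA was higher in ProT cells at 24 h, held GGAAGT 0 times in their windows. A link between these letters and the values was not tested. Ddx21, an RNA helicase of the nucleolus whose RNA was also higher at 24 h, is the only such gene with a window that held the GGAAGT letters, and is shown. The 100 bases before its start, on the minus strand at chr10:62602299-62602398, hold them once on each strand, in capitals.
Ddx21: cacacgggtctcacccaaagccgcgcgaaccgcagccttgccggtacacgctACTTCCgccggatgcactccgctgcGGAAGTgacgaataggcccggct

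Depth and labels set limits on these values. Counts in genes ran from 2230143 to 2792084 in mice labelled AKT(E17K) with TAL1, from 2073752 to 3661056 in mice labelled AKT(E17K), from 7155918 to 11302098 in mice labelled TAL1, from 3893990 to 5915285 in EV mice and from 2660641 to 6599146 in ProT libraries. Every mouse labelled TAL1 had more counts in genes than every EV mouse. Reads assigned to no gene also split by group. Their share was 33.0% in each EV mouse and 29.8 to 30.3% in mice labelled TAL1. In ProT cells it was 21.1 to 22.2% at 0 h and 17.8 to 18.4% at 24 h. It was not available for mice with AKT(E17K). The part of these differences in the values of the genes followed was not tested. The spread between replicates (biological coefficient of variation over all genes) was 35.0% in the table with AKT(E17K), 21.95% in that with EV and 11.6% in ProT cells. The mouse gene Tal1 did not follow the labels. It had 0 counts in all mice labelled TAL1 and in all EV mice, 0 counts in the mice labelled AKT(E17K) with TAL1, and 7 counts in 1 of the 3 mice labelled AKT(E17K). In ProT cells it was already abundant at 0 h, and each library at 24 h was below each at 0 h (2155, 2169 and 2004 CPM of all counts in genes at 24 h, against 2601, 2690 and 2965 CPM at 0 h). The mouse gene Akt1 was not higher with the AKT(E17K) label. It had 46.4 to 93.6 CPM of all counts in genes in mice with AKT(E17K), against 120.2 to 157.1 CPM in EV mice and mice labelled TAL1. Those mice stand in separate tables, so this difference cannot be assigned. The text therefore names each group by its label. T cell marker genes were plentiful in all thymus samples (6144 to 16420 CPM, counts scaled to library size, summed over 13 genes), with Cd3e between 224 and 316.8 CPM. The 4 thymic epithelial markers summed to 0 to 3.139 CPM in mice labelled AKT(E17K) with TAL1 (2 of 4 with counts), 4.37 to 27.17 CPM in mice labelled AKT(E17K) (4 of 4), 2.654 to 9.922 CPM in mice labelled TAL1 (1 of 4) and 1.709 to 10.48 CPM in EV mice (2 of 4). Foxn1 and Krt5 were at 0 in all of these groups but the mice labelled AKT(E17K). ProT cells carried little of the mature markers, with Cd4 and Cd8a at 0 at 0, 18 and 24 h. ProT libraries 6 h number 1 and 12 h number 1 stood apart from the other libraries of their own time, and results that rest on them are given with and without them.

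Levels differed widely between the 42 genes. Levels were taken as CPM per kilobase of the longest principal transcript annotated, on one scale over the tables for the 41 genes with a single row. The order of genes depends on this length, which was 8202 bases for Ncl and 1633 for Npm1. In mean CPM alone, Ncl was above Npm1 in EV mice (1370 against 436), in mice labelled TAL1 (1683 against 523) and in ProT cells. It was below Npm1 in mice with AKT(E17K). On the scale per kilobase, Npm1 had the highest level in each of the 9 groups. This gene encodes nucleophosmin, a chaperone and the main granular nucleolar protein. It reached 1335 ± 359 in mice labelled AKT(E17K) with TAL1 and 1655 ± 726 in mice labelled AKT(E17K), 371 ± 57.9 in mice labelled TAL1 and 304 ± 20.3 in EV mice, and 817 ± 12.7 at 24 h against 546 ± 37.6 at 0 h in ProT cells (SD, n = 3 each). In EV mice and in mice labelled TAL1 the next were Ncl (nucleolin, 238 ± 25.1 in mice labelled TAL1 and 191 ± 12.2 in EV mice) and Nop58 (a box C/D scaffold protein, 235 ± 37.4 in mice labelled TAL1 and 170 ± 22.001 in EV mice), which lay within their own spread of each other. In ProT cells Nop10 (a small box H/ACA protein) came second, at 444 ± 19.5 at 24 h and 414 ± 48.4 at 0 h. At the low end stood Rrp12, Heatr1, Polr1b and Utp20, joined by Noc3l in mice with AKT(E17K), at 1.46 to 5.70 CPM per kilobase where they were among the 3 lowest. Rrp12, known from yeast as a factor of subunit export, had 1.72 ± 0.30 in mice labelled TAL1 and 1.46 ± 0.61 in EV mice. Dcaf13 had a pair of rows in some tables and was left out of this scale.

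**Figure D1:**
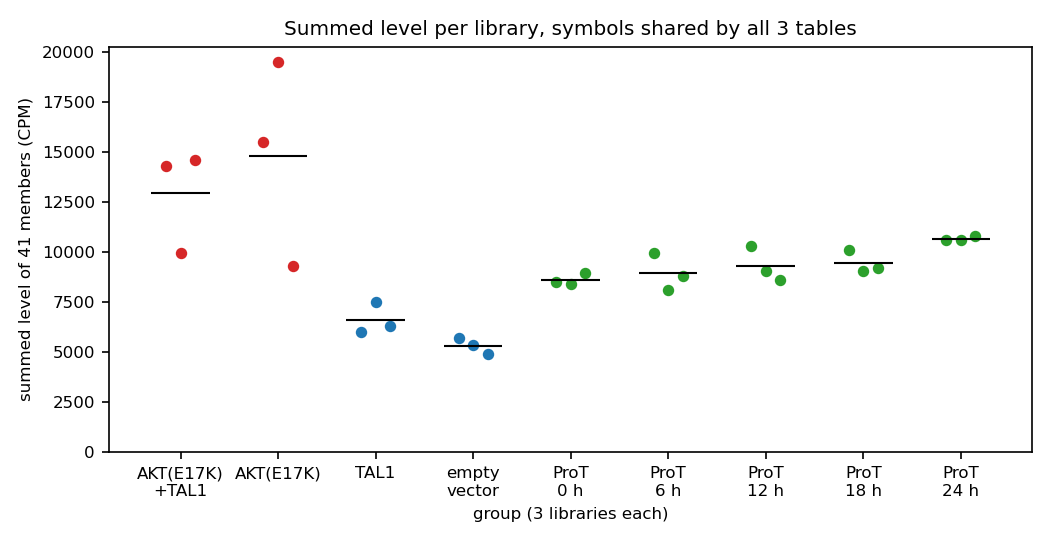
Summed level of 41 nucleolar ribosome biogenesis genes (CPM, vertical axis, scaled over all 27 libraries together) in the 9 groups. Each point is 1 library, and each line is the mean of a group. Mice with AKT(E17K) have the highest means and the widest spread, and among ProT libraries the 3 at 24 h (10598 to 10785) lie above the 3 at 0 h (8376.4 to 8945.3).

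TAL1 was set against empty vector first. In mice labelled TAL1, 2 of the 42 genes were higher than in EV mice and 0 were lower (edgeR quasi-likelihood test with Benjamini-Hochberg adjustment over 12357 genes, adjusted p under 0.05). Over all genes, 5.04% were called and 2.16% were called higher. DESeq2 called 0 lower as well, and 10 of the 42 had an unadjusted p under 0.05. The genes called were Pa2g4, a growth-regulated factor of large subunit assembly, and Dkc1, the pseudouridine synthase of box H/ACA snoRNPs and of telomerase. The median log2 fold change of the 42 was 0.25, against -0.00 over all genes, and 36 of the 42 lay above 0. In 13 of the 42 every mouse labelled TAL1 was higher than every EV mouse, against 11.7% of all genes, and in 1 every mouse was lower, against 11.5% of all genes. Summed over the 42 genes, the level was 5303.3 to 6576.8 CPM in mice labelled TAL1 and 4376.0 to 5022.1 CPM in EV mice.

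Pa2g4 stood at 338, 487 and 355 CPM in mice M317, M318 and M319 labelled TAL1, against 302, 235 and 245 CPM in EV mice M311, M312 and M315. The groups did not overlap, and mouse M318 was the highest. The log2 fold change was 0.59 ± 0.14 (SE, adjusted p = 0.0293, edgeR). Dkc1 stood at 223, 348 and 260 CPM in mice labelled TAL1, against 211, 179 and 154 CPM in EV mice. Mouse M318 was again the highest, and the gap between the groups was small. Its log2 fold change was 0.61 ± 0.16 (adjusted p = 0.0451, edgeR). Both calls depended on single mice. That of Pa2g4 was lost without EV mouse M312 (adjusted p = 0.137), EV mouse M315 (0.132) or mouse M318 labelled TAL1 (0.118, edgeR). That of Dkc1 was lost without EV mouse M312 (0.149), EV mouse M315 (0.200), mouse M318 (0.184) or mouse M319 labelled TAL1 (0.0726, edgeR). Mouse M318 also had the highest myeloid markers of these 6 mice. The 7 myeloid markers summed to 365.8 CPM in it, against 28.76 CPM at most in EV mice, with S100a8 at 160.0 CPM, S100a9 at 137.2 CPM and Lyz2 at 56.2 CPM. The part of this in its values for the 42 genes was not tested.

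Further genes had separate groups in this comparison without passing the test. Among snoRNP proteins, Nop58 had 308, 412 and 325 CPM in mice labelled TAL1 and 275, 272 and 217 CPM in EV mice (0.45 ± 0.13, adjusted p = 0.0632, edgeR). Its partner Nop56, the other box C/D scaffold, had 102, 147 and 111 CPM in mice labelled TAL1 and 112, 86.7 and 89.0 CPM in EV mice, and here the groups overlapped. Nop10 had 135, 170 and 133 CPM in mice labelled TAL1 and 123, 110 and 126 CPM in EV mice. Mouse M318 was the highest in all 3 of these genes.

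Among assembly factors of the small subunit, Noc4l had the largest log2 fold change of the 42, 0.74 ± 0.21 (adjusted p = 0.0705, edgeR), with 22.2, 26.7 and 22.7 CPM in mice labelled TAL1 and 15.6, 14.1 and 13.0 CPM in EV mice. Bysl, which encodes bystin, had 29.9, 27.9 and 30.7 CPM in mice labelled TAL1 and 16.97, 22.9 and 21.7 CPM in EV mice (0.53 ± 0.20, adjusted p = 0.168, edgeR). Neither overlapped between the groups. For the large subunit, Wdr12, which acts in one complex with Pes1 and Bop1, had 207, 247 and 218 CPM in mice labelled TAL1 and 166, 183 and 191 CPM in EV mice. Rrp1b had 48.0, 72.2 and 47.8 CPM in mice labelled TAL1 and 55.6, 41.9 and 30.9 CPM in EV mice, and its groups overlapped.

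Of the abundant nucleolar proteins, 3 had separate groups. Ncl had 1603, 1893 and 1554 CPM in mice labelled TAL1 and 1427, 1412 and 1272 CPM in EV mice (0.30 ± 0.09, adjusted p = 0.0821, edgeR). Nolc1, a chaperone of snoRNPs, had 152, 178 and 146 CPM in mice labelled TAL1 and 134, 125 and 103 CPM in EV mice (0.39 ± 0.13, adjusted p = 0.104, edgeR). Npm1 had 468, 618 and 483 CPM in mice labelled TAL1 and 453, 451 and 403 CPM in EV mice (0.26 ± 0.11). None of the 3 passed the test. Ddx21 was at 0.06 and Gnl3 at 0.30, both with overlapping groups.

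Genes of RNA polymerase I went both ways. Ubtf, the factor that opens ribosomal DNA to RNA polymerase I, had 174, 168 and 193 CPM in mice labelled TAL1 and 167, 152 and 158 CPM in EV mice, groups that were barely separate (0.16). Polr1e, a subunit of the enzyme, was the 1 gene of the 42 whose groups separated downward, with 11.9, 9.62 and 10.3 CPM in mice labelled TAL1 and 12.0, 16.2 and 16.4 CPM in EV mice (-0.48 ± 0.26, adjusted p = 0.375, edgeR). Rrp9, which binds the U3 snoRNA of the small subunit processome, had 20.6, 18.1 and 19.5 CPM in mice labelled TAL1 and 25.1, 15.9 and 20.6 CPM in EV mice (-0.09), with overlap. Grwd1, Noc3l, Polr1a and Heatr1 also had log2 fold changes below 0, from -0.21 to -0.03.

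Few other genes of the pathway were called between these mice. Of 11 further RNA polymerase I genes 1 was higher (Top1, a topoisomerase, 0.37) and 0 were lower, of 41 further small subunit factors 1 was higher (Utp3, 0.38), and of 41 further large subunit factors and 79 cytosolic ribosomal protein genes 0 were called in the edgeR test, in either direction. Myc had 22.7 ± 7.40 CPM in mice labelled TAL1 and 18.6 ± 6.46 CPM in EV mice (SD, n = 3 each, log2 fold change 0.30, adjusted p = 0.701, edgeR). Of the 10 genes of the MYC network 1 was higher, Mxd3, a MAX partner found in dividing cells (0.95 ± 0.18, adjusted p = 0.0101, edgeR). Proliferation genes were higher in the same mice, 12 of 15, with a median of 0.72 and with Rrm2 at 0.95, Top2a at 0.78 and Mki67 at 0.76. Summed T cell markers were also higher there, at 15130 to 16420 CPM in mice labelled TAL1 and 11660 to 13930 CPM in EV mice. Of the 13 markers 2 were called higher and 0 lower (edgeR), and 9 had log2 fold changes above 0. Dntt had 1980, 1812 and 1794 CPM in mice labelled TAL1 and 1288, 1129 and 1237 CPM in EV mice, while Cd3e had 285, 299 and 240 CPM in mice labelled TAL1 and 293, 304 and 272 CPM in EV mice, with overlap. The part of proliferation and of cell makeup in the values of the 42 genes was not tested. In such bulk tissue, more cells of a type and more RNA per cell cannot be told apart.

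**Figure D2:**
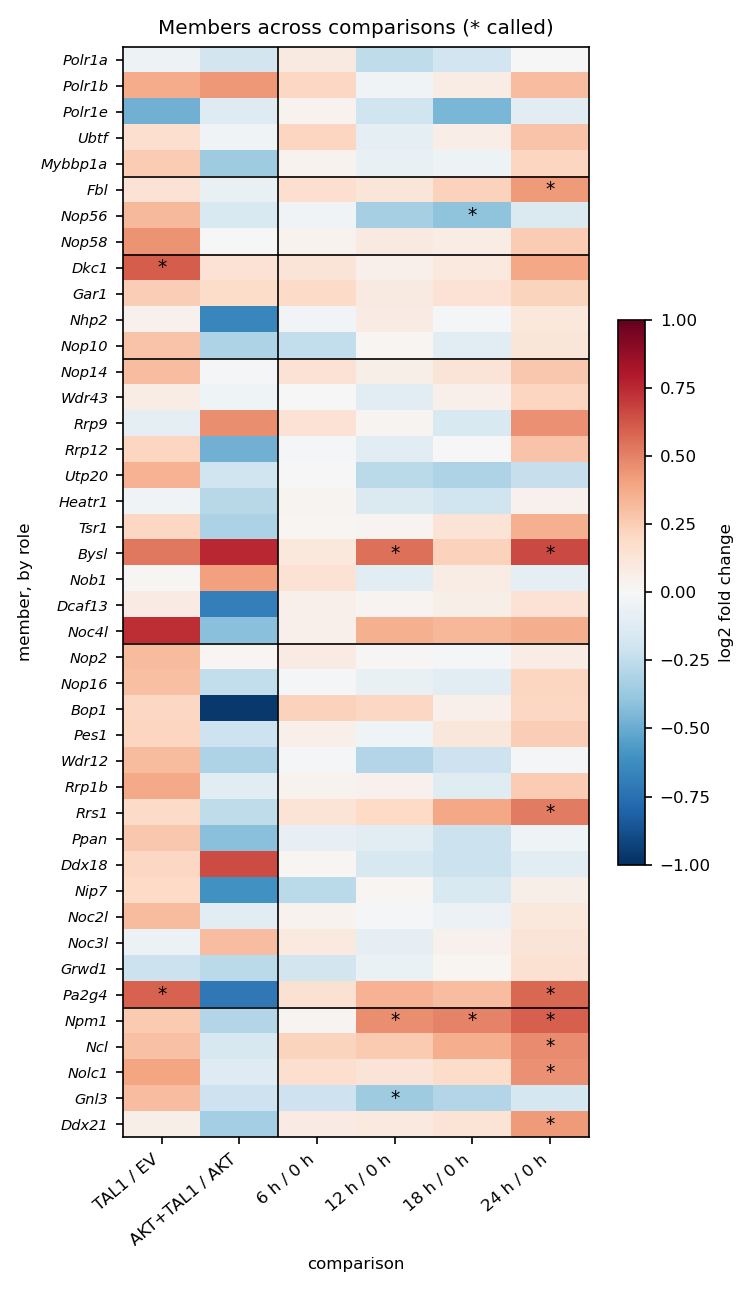
Log2 fold changes of the 42 genes (rows, by role) in 6 comparisons (columns), on a colour scale limited to -1 to 1, with an asterisk where the edgeR test called the gene. The column for TAL1 against EV and that for ProT 24 h against 0 h are mostly above 0, and that for AKT(E17K) with TAL1 against AKT(E17K) holds no asterisk.

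TAL1 was then compared on the background of AKT(E17K). Between mice labelled AKT(E17K) with TAL1 and mice labelled AKT(E17K), edgeR called 0 of the 42 genes, and 0% of all 9782 genes tested. An unadjusted p under 0.05 was found for 2 of the 42, and DESeq2 called 0 of the 42 and 76 of all genes. The median log2 fold change of the 42 was -0.19, against -0.01 over all genes, and 9 of the 42 lay above 0. No gene of the 42 had separate groups, where 6.18% of all genes had every mouse higher and 5.72% every mouse lower. Without 1 mouse at a time, the median ran from -0.41 to 0.05, so its sign rested on single mice.

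Values varied widely within each group. Bop1, a large subunit factor that works with Pes1 and Wdr12, had the smallest p. It stood at 82.0, 55.4 and 98.8 CPM in mice m116, m117 and m119 labelled AKT(E17K) with TAL1, against 225, 136 and 98.5 CPM in mice m121, m122 and m124 labelled AKT(E17K). Its log2 fold change was -0.96 ± 0.34 (SE, adjusted p = 0.651, edgeR). Pa2g4 had 1073, 722 and 1170 CPM in mice labelled AKT(E17K) with TAL1 and 1951, 2128 and 801 CPM in mice labelled AKT(E17K), and mouse m124 lay within the range of the first group. Its log2 fold change was -0.72 ± 0.38 (adjusted p = 0.701, edgeR). Npm1 had 2314, 1364 and 2240 CPM in mice labelled AKT(E17K) with TAL1 and 2384, 3508 and 1350 CPM in mice labelled AKT(E17K), with 1 low mouse in each group.

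Assembly factors with smaller values also overlapped. Dcaf13, a small subunit factor, had 88.7, 83.0 and 134 CPM in mice labelled AKT(E17K) with TAL1 and 214, 123.8 and 151 CPM in mice labelled AKT(E17K). Nhp2, a box H/ACA protein, had 95.1, 61.8 and 111 CPM in the mice with TAL1 and 189, 140 and 90.3 CPM in those without. Nip7, a large subunit factor, had 29.2, 24.0 and 30.8 CPM in mice with TAL1 and 61.5, 39.5 and 26.5 CPM in mice without. In these 3 genes, mouse m117 had the lowest value of its group, and the groups overlapped.

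Noc4l had 39.1, 51.2 and 62.4 CPM in mice with TAL1 and 85.5, 62.7 and 55.0 CPM in mice without, again with overlap. Ddx18, an RNA helicase of the large subunit, had 427, 418 and 445 CPM in mice with TAL1 and 202, 464 and 156 CPM in mice without (0.65 ± 0.38, adjusted p = 0.728, edgeR). Bysl had 635, 777 and 400 CPM in mice with TAL1 and 258, 167 and 649 CPM in mice without (0.75 ± 0.47, adjusted p = 0.739, edgeR). Ddx18 and Bysl had the largest log2 fold changes above 0, and both rested on overlapping groups.

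Genes chosen to stand for each role showed the same overlap. Nop56 had 617, 394 and 602 CPM in mice with TAL1 and 634, 750 and 412 CPM in mice without (-0.16), and Nop10 had 193, 147 and 218 CPM in mice with TAL1 and 306, 251 and 132 CPM in mice without (-0.31). Rrp1b had 163, 80.1 and 134 CPM in mice with TAL1 and 158, 166 and 83.6 CPM in mice without (-0.11). In each of these 3 genes, m117 was the lowest mouse with TAL1 and m124 the lowest without. Rrp9 had 67.6, 52.2 and 61.0 CPM in mice with TAL1 and 55.1, 51.1 and 25.7 CPM in mice without (0.46). Ubtf was more even, with 130, 113 and 115.6 CPM in mice with TAL1 and 115.6, 137 and 115.7 CPM in mice without (-0.03).

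The spread was larger for the 42 genes than for all genes in these mice. Their median coefficient of variation was 25.02% in mice labelled AKT(E17K) with TAL1 and 37.0% in mice labelled AKT(E17K), where all genes tested had medians of 22.7% and 27.8%. In mice labelled TAL1 the median for the 42 was 14.5% and in EV mice 14.9%. The deviations ran together within an animal. Against the mean of their table, the 42 genes had median log2 deviations of 0.06, -0.44 and 0.09 in mice m116, m117 and m119 labelled AKT(E17K) with TAL1, and of 0.20, 0.42 and -0.47 in mice m121, m122 and m124 labelled AKT(E17K). In mouse m124, 3 of the 42 genes lay above the mean of the table, and in mouse m122, 37 did. The 79 ribosomal protein genes had deviations of -0.22 in mouse m124 and -0.43 in mouse m117, and the 15 proliferation genes of -0.10 and -0.56. Markers of other cells also differed between these mice, with Lyz2 at 622 CPM and Col1a1 at 137 CPM in mouse m121, and with the 6 pro-T stage markers at 988.7 to 2781 CPM in mice with TAL1 and 625 to 788.4 CPM in mice without. The part of all these in the values of the 42 genes was not tested. Among the other lists none was called, the ribosomal protein genes had a median of -0.31 between the groups, and Myc had 14.9 ± 4.58 CPM in mice with TAL1 and 18.4 ± 10.8 CPM in mice without.

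**Figure D3:**
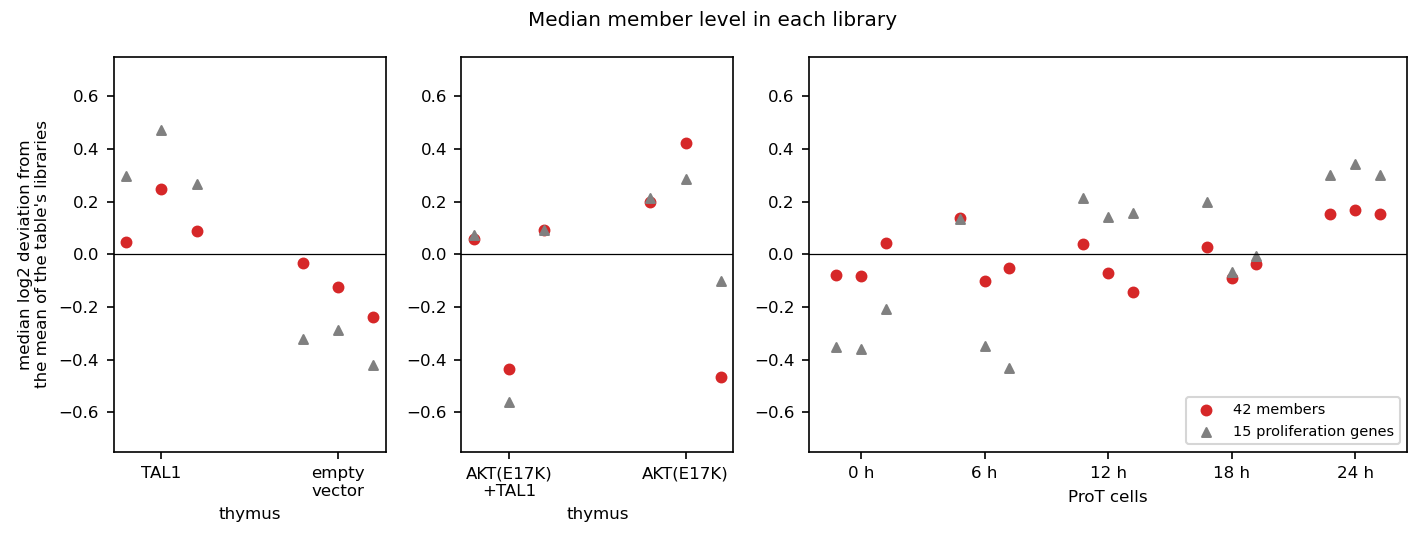
Median log2 deviation from the mean of its own table (vertical axis) for the 42 genes and for 15 proliferation genes, with 1 point per library in each of the 9 groups. Mouse m124 labelled AKT(E17K) lies at -0.47 and mouse m122 at 0.42, and the 3 ProT libraries at 24 h lie together at 0.15 to 0.17.

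The difference between these comparisons was itself tested. In 1 fit over the 12 mice, the effect of the TAL1 label with AKT(E17K) minus that without it was called by edgeR for 0 of 41 genes, against 0.164% of 10947 genes. Dcaf13 was left out of this fit because of its rows. An unadjusted p under 0.05 was found for 4 of the 41, and DESeq2 called 0. The 4 were Noc4l (-1.13 ± 0.32, adjusted p = 0.217, edgeR), Pa2g4 (-1.29 ± 0.43, adjusted p = 0.286, edgeR), Bop1 (-1.14 ± 0.41) and Wdr12 (-0.60 ± 0.26). The median difference was -0.43 on the log2 scale, with 7 of 41 above 0. It ran from -0.67 to -0.15 without 1 mouse at a time. Pa2g4 was called when mouse m124 was left out, with a difference of -1.61 (adjusted p = 0.0214, edgeR). With all 12 mice, the effect of the TAL1 label was not shown to differ for any single gene.

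ProT cells gave a time course with closer replicates. After 24 h of 4OH tamoxifen, 8 of the 42 genes were higher than at 0 h and 0 were lower, by edgeR and by DESeq2. Over all 13610 genes, 18.7% were called and 9.43% were called higher. The 8 genes encode Bysl, Npm1, Pa2g4, Ncl, Ddx21, Nolc1, Rrs1 and Fbl, and 4 of them are among the 5 abundant nucleolar proteins and chaperones. The median log2 fold change of the 42 was 0.22, against -0.01 over all genes, and 34 lay above 0. In 20 of the 42 every library at 24 h was higher than every library at 0 h, against 20.4% of all genes, and in 0 was every library lower, against 20.1% of all genes. By role, called genes were 0 of 5 of RNA polymerase I, 1 of 3 of box C/D, 0 of 4 of box H/ACA, 1 of 11 of the small subunit, 2 of 14 of the large subunit and 4 of 5 of the abundant proteins. The part of expression level in this count was not tested. At the same log2 fold change of 0.46, Nolc1 (145 CPM at 24 h) was called and Rrp9 (22.4 CPM) was not. The spread was lowest at the end of the course, with a median coefficient of variation of 6.995% at 24 h and 9.68% at 0 h. It was lowest there over all genes tested too, with medians of 11.07% at 24 h and 13.89% at 0 h.

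Few of the 42 had changed at the times between. At 6 h, edgeR called 0 of the 42 and 0% of all genes against 0 h. DESeq2 called 0 of the 42 there, and 2 of the 42 had an unadjusted p under 0.05 (Nop10 at -0.25 and Gnl3 at -0.21). At 12 h, 12% of all genes were called and 6.33% higher, and of the 42 genes Bysl and Npm1 were higher and Gnl3 was lower. At 18 h, 8.82% of all genes were called, and Npm1 was higher and Nop56 lower. The medians of the 42 were 0.04 at 6 h, 0.02 at 12 h and 0.05 at 18 h. All 4 comparisons share the libraries at 0 h. Between neighbouring times, 12 h against 6 h had Bysl (0.45) and Npm1 (0.44) higher, where 10.9% of all genes were called. At 24 h against 12 h, 0 of the 42 were called by edgeR or by DESeq2, where 0.191% of all genes were, and 13 of the 42 had an unadjusted p under 0.05. There, 41 of the 42 log2 fold changes lay above 0, with a median of 0.21, and 12 genes had every library at 24 h above every library at 12 h, against 7.06% of all genes, with 0 in the other direction, against 6.71%. Over all times in 1 test, 18% of all genes were called, and of the 42 Bysl, Npm1, Pa2g4 and Nop56.

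**Figure D4:**
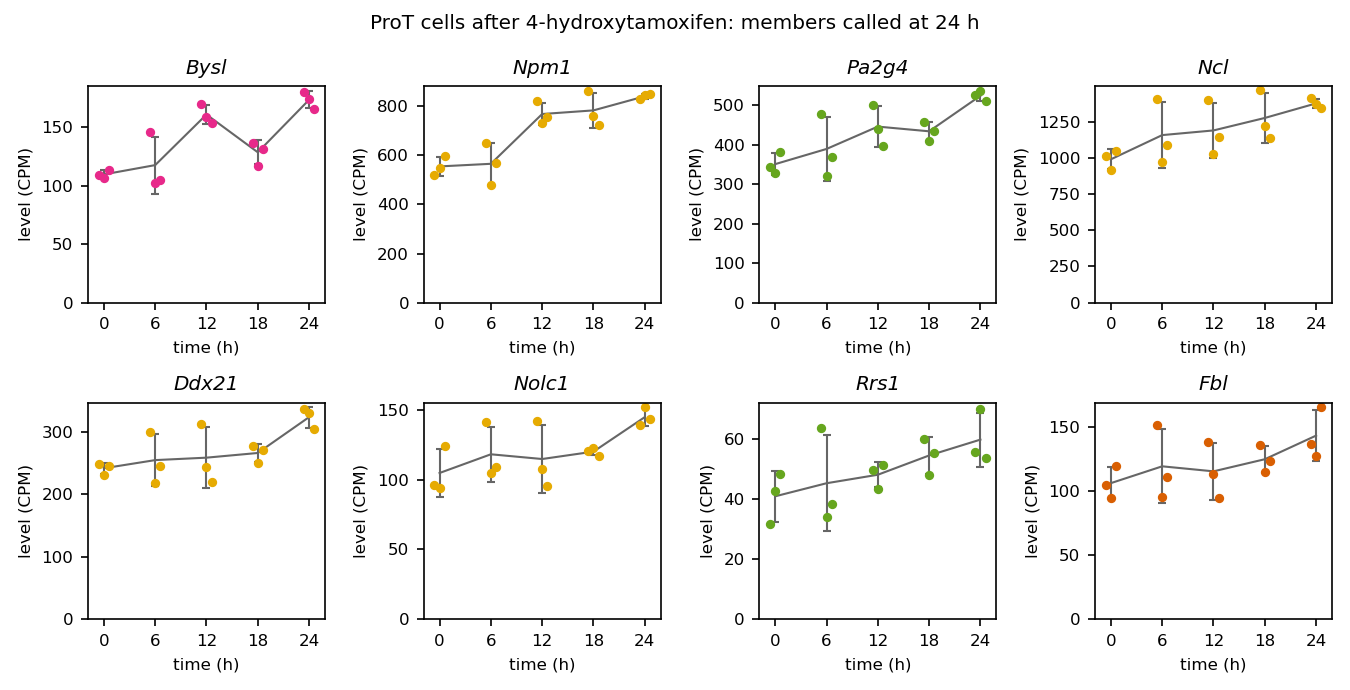
CPM (vertical axis) against hours of 4OH tamoxifen (horizontal axis) in ProT cells for the 8 genes called at 24 h, with 1 point per library and a line through the means ± SD of 3 libraries. Bysl, Npm1 and Pa2g4 are already separate from 0 h at 12 h, and all 8 are separate at 24 h.

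The abundant nucleolar proteins come first, with 4 of the 8 genes called at 24 h. Npm1 had 518, 549 and 598 CPM before treatment, 649, 479 and 570 after 6 h, 820, 731 and 755 after 12 h, 864, 762 and 725 after 18 h, and 828, 845 and 850 after 24 h. Every library from 12 h on lay above every library at 0 and 6 h. Against the untreated cells, its log2 fold change was 0.47 ± 0.12 after 12 h, 0.50 ± 0.12 after 18 h and 0.60 ± 0.12 after 24 h, with adjusted p of 0.00928 (12 h), 0.00879 (18 h) and 0.000914 (24 h, edgeR). The call at 24 h was kept without any 1 library. That at 12 h was lost without library 1 of 0 h (adjusted p = 0.0553), and that at 18 h without library 1 of 0 h (0.0517) or library 1 of 18 h (0.0784, edgeR). The step from 6 h to 12 h (adjusted p = 0.0147) was lost without library 2 (0.128) or library 3 (0.0515, edgeR) of 6 h.

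Ncl, which binds ribosomal RNA precursors, had 1010, 915 and 1046 CPM before treatment, 1409, 973 and 1091 after 6 h, 1401, 1024 and 1144 after 12 h, 1469, 1220 and 1139 after 18 h, and 1413, 1370 and 1347 after 24 h. The 3 libraries at 24 h were close to each other and above those at 0 h (0.48 ± 0.14, adjusted p = 0.0165, edgeR). The call was lost without library 2 of 0 h (0.0871) or library 1 of 24 h (0.0585, edgeR). Nolc1 had 95.8, 94.1 and 124.2 CPM before treatment, 141, 105 and 109 after 6 h, 142, 107 and 95.1 after 12 h, 120.5, 122.3 and 117.2 after 18 h, and 139, 152 and 143 after 24 h (0.46 ± 0.14, adjusted p = 0.0203, edgeR). Its values at 12 h overlapped those at 0 h, and those at 24 h did not. The call was lost without library 1 (0.0901) or 2 (0.115) of 0 h or library 2 of 24 h (0.0754, edgeR).

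Ddx21, the helicase whose upstream letters are printed above, couples RNA polymerase I transcription to processing. It had 248, 232 and 246 CPM before treatment, 300, 219 and 246 after 6 h, 313, 244 and 220 after 12 h, 278, 250 and 271 after 18 h, and 336, 331 and 305 after 24 h. Only at 24 h did all 3 libraries exceed 300 CPM (0.42 ± 0.13, adjusted p = 0.0191, edgeR). The call was lost without library 2 of 0 h (0.0831) or library 1 (0.0715) or 2 (0.0622, edgeR) of 24 h. Gnl3, nucleostemin, went the other way among these proteins, with 228, 229 and 205 CPM before treatment, 181, 187 and 204 after 6 h, 171, 171 and 173 after 12 h, 187, 177 and 176 after 18 h, and 188, 192 and 205 after 24 h. It was lower at 12 h than at 0 h (-0.36 ± 0.10, adjusted p = 0.0194) and not called at 24 h (-0.18, edgeR). Its call at 12 h was lost without library 1 (0.0774) or 2 (0.0925) of 0 h or library 2 of 12 h (0.0509, edgeR).

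Among large subunit factors, Pa2g4 had 342, 328 and 382 CPM before treatment, 478, 321 and 369 after 6 h, 500, 439 and 398 after 12 h, 457, 409 and 435 after 18 h, and 526, 536 and 509 after 24 h. The libraries from 12 h on were above all 3 at 0 h, and those at 24 h above all the others. Its log2 fold change at 24 h was 0.58 ± 0.13 (adjusted p = 0.00215, edgeR), and the call was kept without any 1 library. In the test over all times (adjusted p = 0.0128) it was lost without library 2 of 0 h (0.0558) or library 2 of 24 h (0.0509, edgeR). Rrs1, which helps to place a small ribosomal RNA in the large subunit, had 31.8, 42.8 and 48.5 CPM before treatment, 63.7, 34.0 and 38.5 after 6 h, 49.8, 43.4 and 51.4 after 12 h, 60.3, 48.1 and 55.6 after 18 h, and 55.7, 70.3 and 53.9 after 24 h. The gap between 24 h and 0 h was narrow (0.52 ± 0.18, adjusted p = 0.0379, edgeR). That call was lost without library 1 (0.176) or 2 (0.0910) of 0 h or library 1 (0.0549) or 2 (0.187, edgeR) of 24 h. Wdr12 had 109, 120 and 115 CPM before treatment, 118, 118 and 104 after 6 h, 111, 82.9 and 86.5 after 12 h, 94.4, 97.1 and 107 after 18 h, and 112, 109 and 121.2 after 24 h, with overlapping groups at both ends.

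The snoRNP proteins split. Fbl, the methyltransferase of box C/D snoRNPs, had 105, 95.0 and 120 CPM before treatment, 152, 95.8 and 111 after 6 h, 139, 114 and 94.5 after 12 h, 136, 115 and 123.6 after 18 h, and 137, 128 and 166 after 24 h. It was higher at 24 h (0.43 ± 0.15, adjusted p = 0.0470, edgeR), near the threshold. The call was lost without library 1 (0.117) or 2 (0.193) of 0 h or library 1 (0.0780) or 3 (0.199, edgeR) of 24 h. Nop56 had 204, 195 and 185 CPM before treatment, 168, 192 and 210 after 6 h, 172, 160 and 130 after 12 h, 150, 129 and 161 after 18 h, and 167, 167 and 195 after 24 h. It was lower at 18 h than at 0 h (-0.41 ± 0.12, adjusted p = 0.0350, edgeR), where the groups did not overlap, and at 24 h they overlapped again. That call was lost without any library of 0 h (adjusted p = 0.131, 0.109 and 0.0509) or without library 1 (0.109) or 2 (0.165, edgeR) of 18 h. Its call over all times (adjusted p = 0.0427) was lost without 12 of the 15 libraries, all but libraries 1 of 6 h and of 12 h and library 3 of 18 h (adjusted p up to 0.140, edgeR). Nop56 holds 5 annotated snoRNA genes within its bounds, and 8.12% of its exon bases are shared with other genes.

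The H/ACA proteins were not called at 24 h. Dkc1 had 260, 216 and 242 CPM before treatment, 303, 222 and 260 after 6 h, 308, 244 and 188 after 12 h, 277, 242 and 248 after 18 h, and 294, 293 and 354 after 24 h (0.39, adjusted p = 0.0542, edgeR). Nop10 had 250, 313 and 295 CPM before treatment, 230, 245 and 249 after 6 h, 287, 318.2 and 264 after 12 h, 277, 260 and 260 after 18 h, and 306, 301 and 325 after 24 h. The libraries of Dkc1 at 24 h lay above those at 0 h, and those of Nop10 overlapped.

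For RNA polymerase I, Ubtf had 65.7, 82.5 and 80.2 CPM before treatment, 105, 79.4 and 82.1 after 6 h, 80.3, 73.0 and 62.5 after 12 h, 80.1, 77.9 and 82.1 after 18 h, and 94.8, 95.1 and 90.8 after 24 h. Its groups were separate at 24 h without passing the test (0.29). Of the small subunit factors beside Bysl, Noc4l had 20.5, 23.2 and 21.8 CPM before treatment, 24.7, 23.8 and 19.1 after 6 h, 25.1, 29.5 and 29.7 after 12 h, 30.3, 25.4 and 26.96 after 18 h, and 27.4, 25.8 and 32.1 after 24 h (0.37). Every library of Noc4l from 12 h on was above those at 0 h. Tsr1, a late small subunit factor with 32.3% of its exon bases shared with Srr, had 42.7, 59.5 and 64.2 CPM before treatment, 64.3, 46.1 and 60.5 after 6 h, 60.1, 56.4 and 55.7 after 12 h, 62.4, 59.9 and 63.5 after 18 h, and 74.5, 67.6 and 74.7 after 24 h (0.36, adjusted p = 0.0567, edgeR). Its highest libraries were the 3 at 24 h. The 7 genes with CACGTG in the windows shown had log2 fold changes from -0.23 (Utp20) to 0.36 (Tsr1) at 24 h. Of the 7, 0 were called, where 18.7% of all genes were. Npm1, Rrs1 and Fbl, called at 24 h, had no window and could not be counted. The count therefore cannot say whether called genes hold these letters less often.

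Further genes are shown for the other comparisons. Mybbp1a, a nucleolar partner of RNA polymerase I, had 121.7, 128 and 142 CPM before treatment, 146, 123 and 134 after 6 h, 145, 126 and 102 after 12 h, 134, 120 and 123.99 after 18 h, and 153, 155 and 146 after 24 h. Wdr43, which acts in the small subunit processome, had 221, 232 and 234 CPM before treatment, 228, 222 and 240 after 6 h, 254, 205 and 177 after 12 h, 246, 237 and 230 after 18 h, and 265, 264 and 269 after 24 h. In both, the 3 libraries at 24 h lay above those at 0 h. Rrp1b had 102, 83.9 and 103 CPM before treatment, 108, 94.2 and 93.5 after 6 h, 109, 96.1 and 92.8 after 12 h, 90.6, 89.2 and 86.6 after 18 h, and 121.9, 115 and 108 after 24 h. Rrp9 had 10.9, 15.6 and 20.2 CPM before treatment, 18.3, 17.3 and 18.0 after 6 h, 17.1, 18.2 and 13.9 after 12 h, 13.1, 12.3 and 17.9 after 18 h, and 25.1, 17.4 and 24.6 after 24 h. Rrp1b was separate at 24 h and Rrp9 was not, and neither was called.

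Some genes were lower or level. Polr1a, the catalytic subunit of RNA polymerase I, had 39.3, 34.0 and 33.9 CPM before treatment, 43.1, 38.0 and 31.2 after 6 h, 31.5, 31.1 and 26.4 after 12 h, 33.9, 23.7 and 35.0 after 18 h, and 35.9, 41.2 and 28.7 after 24 h. Utp20, a scaffold of the small subunit processome, had 35.6, 31.2 and 29.4 CPM before treatment, 35.6, 30.6 and 28.5 after 6 h, 29.9, 23.4 and 25.4 after 12 h, 28.9, 23.9 and 24.2 after 18 h, and 26.2, 30.8 and 23.8 after 24 h. Neither was called at any time, although all 3 libraries of Polr1a at 12 h and of Utp20 at 18 h lay below those at 0 h. Nip7 had 37.2, 43.4 and 45.0 CPM before treatment, 39.9, 27.9 and 36.9 after 6 h, 38.2, 40.8 and 50.4 after 12 h, 43.4, 31.8 and 38.4 after 18 h, and 37.6, 50.7 and 43.9 after 24 h. At 6 h none of the remaining genes with a small p was called. Gar1 had 97.6, 63.2 and 70.3 CPM after 6 h against 60.2, 69.2 and 73.0 CPM before treatment. Bop1 had 38.7, 22.04 and 26.5 CPM after 6 h against 25.5, 24.1 and 25.7 CPM before treatment. Nop14, a small subunit factor, had 77.5, 69.0 and 71.4 CPM after 6 h against 76.6, 59.0 and 63.7 CPM before treatment. In Gar1 and Bop1 the first library of 6 h was the highest.

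Bysl had the smallest p of the 42 at 24 h. It had 109, 106 and 113 CPM before treatment, 146, 102 and 105 after 6 h, 170, 159 and 154 after 12 h, 137, 117.1 and 132 after 18 h, and 180, 174 and 166 after 24 h. The libraries at 12, 18 and 24 h lay above those at 0 h. Its log2 fold change was 0.55 ± 0.12 after 12 h (edgeR, adjusted p = 0.00302). It was 0.66 ± 0.12 after 24 h (edgeR, adjusted p = 0.000421), and both calls were kept without any 1 library. The step between 6 h and 12 h (adjusted p = 0.0136) was lost without library 2 (0.115) or 3 (0.0974, edgeR) of 6 h.

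In mice with AKT(E17K) and in ProT cells, the counts of Bysl cannot be told apart from those of its neighbour. Bysl lies on the minus strand of chromosome 17 at 47599331 to 47611492 (GRCm38, GENCODE M21), and 9.37% of its exon bases are shared with Ccnd3, the gene of cyclin D3. The strand setting of the counting was not given in the sources used here. Within a table the ratio of their counts was narrow: 0.861 to 1.22 in the 6 mice with AKT(E17K) and 0.845 to 1.01 in the 15 ProT libraries. In mice labelled TAL1 and EV mice it was 0.0644 to 0.143. Between those 2 groups, the log2 fold change was 0.53 for Bysl and -0.01 for Ccnd3. Ccnd3 had 682, 870 and 433 CPM in mice labelled AKT(E17K) with TAL1 and 239, 136 and 754 CPM in mice labelled AKT(E17K), in the same order over the 6 mice as Bysl. In ProT cells Ccnd3 was higher too, at 174 ± 6.30 CPM at 24 h and 123 ± 2.68 CPM at 0 h (SD, n = 3 each, log2 fold change 0.50 ± 0.11, adjusted p = 0.00286, edgeR). Noc2l, with 20.9% of exon bases shared with Samd11, had a ratio to it of 1.24 to 1.62 in mice with AKT(E17K) and 1.27 to 1.59 in ProT cells, but of 8 to 60.8 in mice labelled TAL1 and EV mice, where Samd11 had 4 to 25 counts. The values of Bysl and Noc2l are therefore uncertain. The ratio of Tsr1 to Srr did not split this way, at 1.56 to 2.35 in mice with AKT(E17K), 1.13 to 1.89 in ProT cells and 1.37 to 2.48 in mice labelled TAL1 and EV mice.

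**Figure D5:**
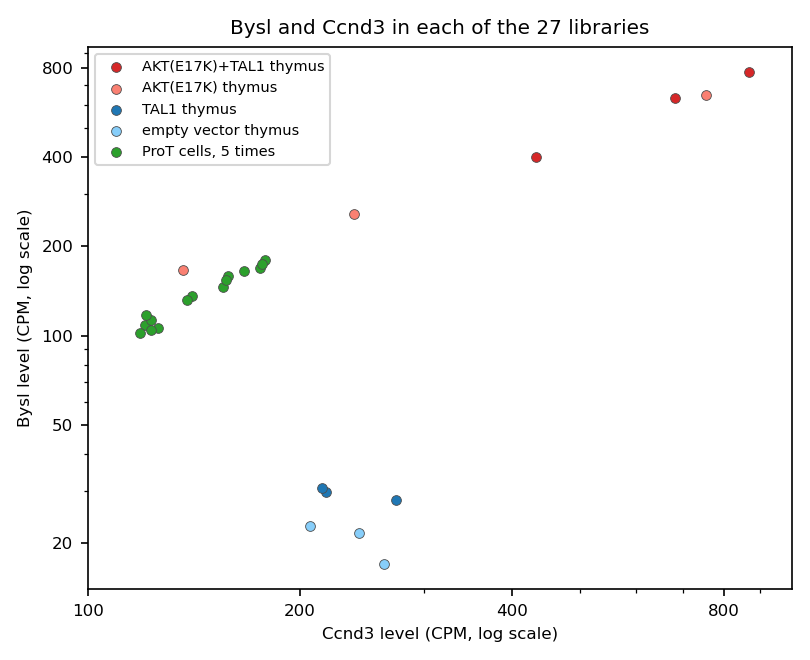
Level of Bysl (CPM, vertical log axis) against that of Ccnd3 (CPM, horizontal log axis), with 1 point per library, coloured by group. Mice with AKT(E17K) and ProT libraries lie along one line near equal levels, and mice labelled TAL1 and EV mice lie below it.

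The 2 libraries that stood apart weighed on the ProT counts. In library 1 of 6 h the median deviation of the 42 genes was 0.14, against -0.10 and -0.05 in the other libraries of 6 h, and its Ncl, Pa2g4 and Fbl were the highest of that time. Without it and without library 1 of 12 h, a choice made after seeing the data, 13 of the 42 were higher at 24 h than at 0 h, all 8 named above with Dkc1, Nop58, Rrp1b, Tsr1 and Ubtf. In that fit 13.2% of all 13781 genes were called higher. At 24 h against 12 h, 10 genes were then higher and 0 lower, where 2.08% of all genes were called higher. At 12 h against 0 h, 2 were higher and 3 lower, with Nop56 and Wdr12 added to Gnl3, and at 18 h 4 were higher and 2 lower. The share of all genes called was 16.1% at 12 h and 14.96% at 18 h. The count over all times became 18, where 32.4% of all genes were called. At 6 h it stayed at 0, as did the count over all genes.

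Other genes of the pathway were mixed at 24 h. Of 12 further RNA polymerase I genes 1 was higher (Top1, 0.31) and 1 lower (Taf1d, -0.47). Of 41 further small subunit factors 1 was higher (Ddx52, 0.43) and 1 lower (Krr1, -0.39). Of 41 further large subunit factors 4 were higher, Brix1 at 0.51 and Rsl1d1 at 0.37 among them, and 3 were lower, with Senp3 at -0.76. Cytosolic ribosomal protein genes, the other part of the protein supply of a ribosome, had 6 higher and 9 lower of 79, with a median of -0.14 and with Rpl4 at 0.44, Rpl34 at -0.77 and Rps24 at -0.73. Myc itself was at 39.6 ± 7.18 CPM at 24 h and 42.7 ± 2.22 CPM at 0 h (SD, n = 3 each, log2 fold change -0.10, adjusted p = 0.690, edgeR). Mycn was higher, at 33.4 ± 1.54 CPM at 24 h and 20.6 ± 3.28 CPM at 0 h (0.71 ± 0.15, adjusted p = 0.00140, edgeR), and so was Mxd3 (0.53, adjusted p = 0.00518, edgeR).

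Proliferation and stage genes moved with the time course. Of the 15 proliferation genes, 9 were higher at 12 h, 4 at 18 h and 11 at 24 h, where their median was 0.59, with Plk1 at 0.91, Top2a at 0.90 and Mki67 at 0.69. The 6 pro-T stage markers summed to 1685 to 1836 CPM at 24 h and 930.2 to 1047 CPM at 0 h. Of the 6, 3 were called higher and 2 lower (edgeR). Il2ra, the most abundant of them at 24 h, had 1067, 1106 and 1104 CPM at 24 h and 559, 493 and 518 CPM at 0 h. Kit had 252, 243 and 236 CPM at 24 h and 342, 292 and 289 CPM at 0 h, so the markers did not move one way. The part of these genes in the change of the 42 was not tested.

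The comparison in thymus and that in ProT cells share no library. Over the 42 genes, the log2 fold changes of TAL1 against EV and of ProT 24 h against 0 h had a Pearson correlation of 0.34, beside 0.19 over all 11033 genes tested in both, and 30 of 42 had the same sign, where 58.2% of all genes did. Pa2g4 was called in both, at 0.59 and 0.58. Dkc1 was at 0.61 and 0.39, Ncl at 0.30 and 0.48, Npm1 at 0.26 and 0.60, and Nop58 at 0.45 and 0.26. Ddx21 and Fbl, called in ProT cells, were at 0.06 and 0.14 in thymus. With ProT 24 h against 12 h instead, the correlation with TAL1 against EV was -0.05 over the 42 genes, beside 0.08 over all genes. There, 35 of 42 had the same sign, where 54.4% of all genes did. For TAL1 against EV and the comparison within AKT(E17K), the correlation was -0.01 and 11 of 42 had the same sign, beside 0.00 and 48.2% over 9115 genes. The points share expression level and gene length, so these numbers describe the genes only.

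The largest contrast between groups was between the tables of mice, and it cannot be assigned. On the common scale, the 41 genes had a median log2 ratio of 1.27 in mice with AKT(E17K), with or without TAL1, over mice without it, and 36 of 41 lay above 0. The 79 ribosomal protein genes had a median of 1.69 and all genes -0.07. In 26 of the 41 every mouse with AKT(E17K) was higher than every mouse without, against 18.1% of all genes. Npm1 averaged 2441 CPM in mice with AKT(E17K) and 551 CPM in the other mice (log2 ratio 2.08). The ratio was 2.75 for Ddx18, 2.36 for Bop1, 2.33 for Nop56, 2.32 for Fbl, 1.96 for Dkc1 and 1.88 for Pa2g4. For Bysl it was 4.03, with the limit set by Ccnd3. Ncl did not follow, at 1879 CPM in mice with AKT(E17K) and 1756 CPM in the others (0.02). Ubtf was lower in every mouse with AKT(E17K), at 135 CPM and 194 CPM in the others, and so was Gar1, at 24.5 CPM and 75.6 CPM, where 19.6% of all genes were lower in every such mouse. Marker genes differed between the same mice. On the scale of each table, the 5 erythroid markers summed to 51.57 to 517.5 CPM in mice with AKT(E17K) and 0 to 14.69 CPM in the others, and the 13 T cell markers to 6144 to 9441 CPM in mice with AKT(E17K) and 11660 to 16420 CPM in the others. These mice stand in separate tables with different sets of rows, so the AKT(E17K) label, cell makeup, the experiment and the processing cannot be told apart, and no test was made.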

How the data were processed

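RNA-seq counts per gene were the deposited values: whole-number read counts, not normalized, in 3 tables. Per the submitters' processing notes, FastQC, HISAT2, SAMtools and HTSeq were used, with mm10 (GRCm38). Tool versions, annotation and strandedness of the counting are not given in the sources used here. Groups came from the labels. The 5 summary lines of each table with them were left out, and 27 symbols changed to dates in each of the tables with EV mice and ProT cells were restored. The 42 genes and all lists were chosen with earlier results of these data known. Each table was filtered (filterByExpr), scaled by TMM and tested with edgeR 4.0.16 (quasi-likelihood F test, two-sided, limma 3.58.1, R 4.3.3). The ProT test used all 15 libraries. P-values were adjusted by Benjamini-Hochberg over all genes tested, with a threshold of 0.05, and the steps were tested on simulated data. CPM refers to TMM-scaled totals of tested genes. DESeq2 1.42.0, other scalings, no filter, a replicate block and leaving out each library were alternatives. Per comparison, the 8 genes with the smallest p and 1 further gene of each role were given by library. Positions come from GENCODE M21, sequences from RefSeq. Libraries of a group were not identical (chi-square per degree of freedom 2.39 to 37.5).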

Additional observations from a re-analysis of the deposited data

How the results depend on the processing

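Of 21 calls of single genes, 6 were kept without any 1 library: Bysl at 12 h, at 24 h and over all times, Npm1 at 24 h and over all times, and Pa2g4 at 24 h. Those of Bysl carry the limit set by Ccnd3, which was itself higher at 12 h (0.41) and at 24 h (0.50). Single genes were followed under all alternatives only where they were among the 8 with the smallest p of a comparison. Of these values, 958 kept direction and side of the threshold, 58 gained a call, 60 lost one and 4 changed sign. Those were Bop1 and Gar1 at 6 h, at -0.049 and -0.026 without library 1 of 6 h and at -0.049 and -0.029 with both libraries that stand apart left out. Leaving out 1 library at a time, Bop1 ran from -0.049 to 0.40 and Gar1 from -0.026 to 0.32. The cause was not tested. Scaling by library totals put the median of all ProT genes at 0.10 at 6 h, 0.18 at 12 h, 0.13 at 18 h and 0.17 at 24 h. The medians of the 42 were then 0.15 at 6 h, 0.20 at 12 h, 0.19 at 18 h, 0.40 at 24 h and 0.018 for 12 h against 6 h, but at 24 h they lay 0.23 above all genes under both scalings. That scaling called 5 genes at 12 h (5 higher and 0 lower), 18 at 24 h, 7 over all times and 1 for TAL1 against EV. At 18 h it called 2 higher and 0 lower. A fit of only the 2 times compared called 0 for 12 h against 6 h, 6 at 18 h and 14 at 24 h. DESeq2 called 7 over all times and 4 for TAL1 against EV (Dkc1, Ncl, Nop58, Pa2g4), and no filter 8 and 5. The share of all genes called by these alternatives, or without 1 library, is not given here. Their counts therefore have no background beside them and describe the calls only. Without both libraries that stand apart the calls were 5 at 12 h, 5 for 12 h against 6 h, 6 at 18 h, 13 at 24 h, 10 for 24 h against 12 h and 18 over all times, and the median at 6 h was -0.042. Leaving out 1 library gave between 1 and 5 calls at 12 h, 0 to 5 for 12 h against 6 h, between 0 and 2 at 18 h, between 3 and 10 at 24 h, 0 to 5 for 24 h against 12 h, 2 to 11 over all times, 0 to 4 for TAL1 against EV and 0 to 1 for the difference. The medians then ran from -0.041 to 0.12 at 6 h, -0.13 to 0.051 for 12 h against 6 h, -0.057 to 0.052 at 12 h, 0.16 to 0.26 for 24 h against 12 h, between 0.19 and 0.26 at 24 h, between -0.00 and 0.07 at 18 h, 0.17 to 0.30 for TAL1 against EV, -0.41 to 0.05 within AKT(E17K) and -0.67 to -0.15 for the difference. With the replicate number as a block, 9 genes were called at 24 h and 6 over all times, and the other ProT counts did not change. No pairing of ProT libraries by number was seen. Of 30 correlations between libraries of the same number, 1 exceeded 0.1 (range -0.14 to 0.21), and of 60 between different numbers, 4 did. With values centred within groups of 3, this cannot say whether libraries of the same number share a culture. The mice share no numbers between groups. Depth was lowest in the mice with AKT(E17K), where the spread between mice was also the widest.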
